A study of Mus musculus with 12 samples.

Results

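The genes described here are 10 markers of the 2-cell-like state: Zscan4c, Zscan4d, Zscan4f, Zfp352, Tdpoz1, Tdpoz3, Tdpoz4, Tcstv1, Tcstv3 and Arg2. They were taken by symbol from the deposited count files, where each has 1 of the 24015 gene rows. Of the 10, 8 had enough counts to be tested, among 14356 genes tested in all, while Tcstv1 and Tcstv3 had 0 counts in every one of the 12 libraries. In cultures of mouse embryonic stem (ES) cells a small minority of cells at any time transcribes genes that the embryo first switches on at the 2-cell stage. Dux, a double-homeobox transcription factor, is known to start this programme, and Dppa2 and Dppa4 are known to act upstream of Dux. The Zscan4 genes, which encode SCAN-domain zinc finger proteins needed for telomere maintenance in ES cells, are its most used markers, and many genes of the programme lie in clusters of nearly identical copies.

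RNA-seq was done on embryoid bodies, the aggregates that ES cells form when they differentiate in suspension. Trim33 encodes a ubiquitin ligase that binds Smad proteins and chromatin. The 4 groups were Trim33-deficient and control bodies on day 2 of differentiation, and Trim33-deficient and control bodies on day 2.5, with 3 libraries each from what the labels call 3 independent pairs. All lines were described as homozygous for a Trim33-flox allele and carrying UbcCreERT2, a tamoxifen-inducible Cre under a ubiquitin promoter active in most cell types, and came from outbred mouse embryos. They were grown without feeder cells in LIF and 2i, at passages 8 to 10, before bodies were formed. 4OH-tamoxifen, given 24 hours into differentiation (day 1), set off the deletion. The labels give the control bodies the genotype wildtype and do not state whether they also received 4OH-tamoxifen. The share of cells in which the allele was deleted is not given in the labels.

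Libraries held 10066338 to 16529627 reads counted in genes. Trim33 itself was at 66.0 ± 4.88 counts per 1000000 (CPM) in Trim33-deficient bodies and 271 ± 8.55 CPM in control bodies on day 2, and at 58.3 ± 4.23 CPM in Trim33-deficient bodies and 250 ± 12.8 CPM in control bodies on day 2.5 (SD, n = 3 each). Throughout, CPM is the count divided by the library size after TMM scaling, and 3 counts, taken as the floor of detection, equal 0.179 to 0.318 CPM. A library-specific feature touches the members. In 2 libraries the ribosomal RNA precursor Rn45s took an unusual share of gene counts. The share was 7.87% for replicate 1 of the Trim33-deficient bodies of day 2. It was 11.9% for replicate 2 of the control bodies of day 2.5, while the remaining libraries lay between 0.609% and 1.67%. The first of these held the highest level of 7 of the 8 tested members within its group, and the second the lowest level of all 8. Day 2 control replicate 2, with no excess of Rn45s (0.873%), also held the lowest level of all 8. The part of Rn45s in these levels was not tested, and results are given below with and without these 3 libraries where that matters.

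The copies within each family share most of their sequence. The first 120 coding bases of the 3 Zscan4 members, from the GENCODE M21 transcripts on chromosome 7 of mouse build GRCm38, are printed to show how few positions tell the copies apart, with capitals at the 3 positions where they are not all alike.
Zscan4c: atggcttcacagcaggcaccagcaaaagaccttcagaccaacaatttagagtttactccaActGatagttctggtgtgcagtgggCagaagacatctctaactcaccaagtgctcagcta
Zscan4d: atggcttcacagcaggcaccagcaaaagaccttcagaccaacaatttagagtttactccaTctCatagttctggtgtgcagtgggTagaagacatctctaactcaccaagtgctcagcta
Zscan4f: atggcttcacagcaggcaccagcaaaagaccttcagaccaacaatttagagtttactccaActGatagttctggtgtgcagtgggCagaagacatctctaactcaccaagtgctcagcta
In this stretch Zscan4c and Zscan4f have the same letters at every position. Over the whole coding sequence of 1518 bases, Zscan4c and Zscan4f differed at 6 positions (99.6% identical), and Zscan4d differed from each at 35 (97.7% identical). Tdpoz1 and Tdpoz3 were 88.2% identical, Tdpoz3 and Tdpoz4 76.5%, and Tcstv1 and Tcstv3 93.6%. Of all stretches of 50 bases in the transcripts, 14.5% in Zscan4c, 50.4% in Zscan4d and 13.2% in Zscan4f occurred in no other gene's transcript. The same share was 33.8% for Tdpoz3, 55.6% for Tdpoz1, 58.8% for Tdpoz4, 68.6% for Tcstv3, 78.8% for Arg2, 85.0% for Tcstv1 and 92.9% for Zfp352. How reads that match several copies were counted is not given in the sources used here, so the level of 1 copy of Zscan4 or Tdpoz is uncertain. In the count files the row for reads aligned to several places held 0 in all 12 libraries. The family sums given below do not depend on which copy within the family a read was given to. If shared reads were left out before counting, the sums miss them too. Zfp352 and Arg2 carry less of this limit.

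The promoters of the Zscan4 members and of Zfp352 are printed because these genes moved together in the counts. Each window runs from 250 bases before to 50 bases after the gene start in RefSeq (build GRCm38.p6), on the gene's strand, and capitals mark 2 motifs searched on both strands, TATAAA, the letters of a TATA box, and TAATCC, letters known to be read by homeodomain proteins of the bicoid class such as Otx2.
Zscan4c, chr7:11005495-11005794, plus strand: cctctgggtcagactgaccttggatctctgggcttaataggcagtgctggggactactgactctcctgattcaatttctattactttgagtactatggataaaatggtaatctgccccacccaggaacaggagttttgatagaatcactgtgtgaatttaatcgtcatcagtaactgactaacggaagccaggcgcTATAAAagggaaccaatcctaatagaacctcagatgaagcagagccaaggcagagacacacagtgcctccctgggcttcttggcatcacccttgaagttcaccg
Zscan4d, chr7:11166099-11166398, minus strand: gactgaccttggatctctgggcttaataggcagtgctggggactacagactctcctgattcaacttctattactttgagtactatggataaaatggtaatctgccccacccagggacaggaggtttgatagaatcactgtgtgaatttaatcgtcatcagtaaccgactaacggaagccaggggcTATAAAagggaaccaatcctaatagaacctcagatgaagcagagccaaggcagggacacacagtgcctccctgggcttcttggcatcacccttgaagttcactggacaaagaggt
Zscan4f, chr7:11397665-11397964, plus strand: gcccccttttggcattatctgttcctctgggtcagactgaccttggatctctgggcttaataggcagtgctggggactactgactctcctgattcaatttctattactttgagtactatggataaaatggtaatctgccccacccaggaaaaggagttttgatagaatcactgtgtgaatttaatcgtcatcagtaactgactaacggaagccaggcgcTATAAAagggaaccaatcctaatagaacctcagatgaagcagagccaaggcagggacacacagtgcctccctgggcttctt
Zfp352, chr4:90218570-90218869, plus strand: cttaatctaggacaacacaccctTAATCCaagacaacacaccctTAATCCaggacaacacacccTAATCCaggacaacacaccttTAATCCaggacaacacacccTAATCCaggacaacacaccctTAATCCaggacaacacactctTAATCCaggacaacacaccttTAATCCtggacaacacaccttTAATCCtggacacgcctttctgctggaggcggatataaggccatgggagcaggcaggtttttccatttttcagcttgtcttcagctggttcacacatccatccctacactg
The Zscan4 windows each held 1 TATAAA, which began 54 bases before the start of Zscan4c, 65 before that of Zscan4d and 31 before that of Zscan4f, within stretches that are nearly the same in the 3 genes. The Zfp352 window held no TATAAA and 9 copies of TAATCC, spaced within a short unit repeated in tandem. Among 32851 RefSeq promoter windows of 300 bases, that of Zfp352 among them, 13.6% held TATAAA and 7.06% held TAATCC. The only 1 with 9 or more TAATCC was that of Zfp352 itself. No TAATCC was found in the 3 Zscan4 windows, 1 in the Tdpoz1 window, and neither motif in the Tdpoz4 window. The motifs did not overlap. These matches describe letters in the windows. Only exact matches were counted, so close letters such as TATAAG, present in the Zfp352 and Tdpoz1 windows, were not. A window without TATAAA is therefore not shown to lack a TATA box.

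On day 2.5 every member with counts was higher in Trim33-deficient bodies than in control bodies. All 8 of the 8 tested rose (adjusted p under 0.05, edgeR's quasi-likelihood test with Benjamini-Hochberg adjustment over all genes tested), where 22.0% of all genes tested rose and 20.7% fell. Their log2 fold changes ran between 1.15 and 1.86, with a median of 1.59, beside a median of -0.01 over all genes tested. In all 8 the 3 Trim33-deficient libraries stood above the 3 control libraries, as they did in 26.7% of all genes tested. Tdpoz1 passed the filter only through the day 2.5 Trim33-deficient libraries, with 15 to 21 counts there and 9 at most elsewhere. Its calls for a rise into that group, here and over time, are therefore partly set by the filter. The members, and the lists used below, were chosen with earlier results of these data known. Their counts beside the shares over all genes tested are therefore descriptions. In bulk RNA, more cells in this state and more RNA of these genes per cell cannot be told apart.

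The Zscan4 copies came out alike. On day 2.5 Zscan4c had 30.6, 28.5 and 25.0 CPM in Trim33-deficient bodies, against 12.7, 7.20 and 8.94 CPM in control bodies, in the order of replicates 1 to 3. Zscan4d had 71.9, 78.0 and 69.5 CPM in Trim33-deficient bodies, against 36.9, 21.8 and 27.8 CPM in control bodies. Zscan4f had 13.5, 13.2 and 12.3 CPM in Trim33-deficient bodies, against 5.84, 2.49 and 3.84 CPM in control bodies. The groups did not overlap for any of the 3 copies, and control replicate 1 was the highest control library each time. The log2 fold change was 1.53 ± 0.21 for Zscan4c (SE; adjusted p = 7.17e-05, edgeR), 1.33 ± 0.22 for Zscan4d (adjusted p = 0.000688, edgeR) and 1.65 ± 0.23 for Zscan4f (adjusted p = 5.90e-05, edgeR). Summed over Zscan4a to Zscan4f, the family was at 195.9, 202.6 and 183.1 CPM in Trim33-deficient bodies, against 95.9, 57.4 and 67.1 CPM in control bodies, a ratio of means of 2.64.

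Zfp352, a zinc finger gene transcribed in the 2-cell embryo, had the smallest spread among replicates of day 2.5 Trim33-deficient bodies of the 8 members. It had 29.0, 28.4 and 28.0 CPM in Trim33-deficient bodies on day 2.5, against 12.4, 5.95 and 6.17 CPM in control bodies. The Trim33-deficient libraries were almost level, while 1 control library was about as far above the other two as their own level. Its log2 fold change was 1.78 ± 0.30 (SE; adjusted p = 0.000731, edgeR).

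The Tdpoz genes encode proteins with TRAF and BTB/POZ domains and are also transcribed in the early embryo. Tdpoz1 had 1.16, 1.10 and 1.25 CPM in Trim33-deficient bodies on day 2.5 (15 to 21 counts), against 0.591, 0.355 and 0.441 CPM in control bodies (4 to 9 counts). Tdpoz3 had 5.75, 4.90 and 6.55 CPM in Trim33-deficient bodies, against 3.54, 1.51 and 2.52 CPM in control bodies. Tdpoz4 had 14.8, 14.4 and 16.1 CPM in Trim33-deficient bodies, against 6.83, 1.87 and 3.46 CPM in control bodies. No Tdpoz member overlapped between the groups, and control replicate 2 was the lowest library in each. The log2 fold change was 1.30 ± 0.35 for Tdpoz1 (SE; adjusted p = 0.00737, edgeR), 1.15 ± 0.34 for Tdpoz3 (adjusted p = 0.0133, edgeR) and 1.86 ± 0.38 for Tdpoz4 (adjusted p = 0.00257, edgeR). Tdpoz3 no longer passed without day 2.5 control replicate 3 (adjusted p = 0.0501, edgeR), and DESeq2 gave Tdpoz1 an adjusted p of 0.0565. Summed over Tdpoz1 to Tdpoz5, the family averaged 22.3 ± 1.84 CPM in Trim33-deficient bodies and 7.20 ± 3.74 CPM in control bodies (SD, n = 3 each), a ratio of 3.10.

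Arg2 encodes the mitochondrial arginase, which splits arginine into ornithine and urea, and is the 1 member with a known metabolic role. It had 22.4, 20.3 and 17.3 CPM in Trim33-deficient bodies on day 2.5, against 7.28, 4.18 and 5.86 CPM in control bodies, with no overlap. Its log2 fold change of 1.77 ± 0.20 had the smallest adjusted p among the members (SE; adjusted p = 8.82e-06, edgeR). Tcstv1 and Tcstv3, named for variable transcription at the 2-cell stage, stayed at 0 counts in all groups, so no difference was detectable for them. If the counting kept their reads, 0 counts allow up to 3 counts a library. Whether it kept them is not given in the sources used here, so these zeros set no firm limit on their RNA.

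**Figure D1:**
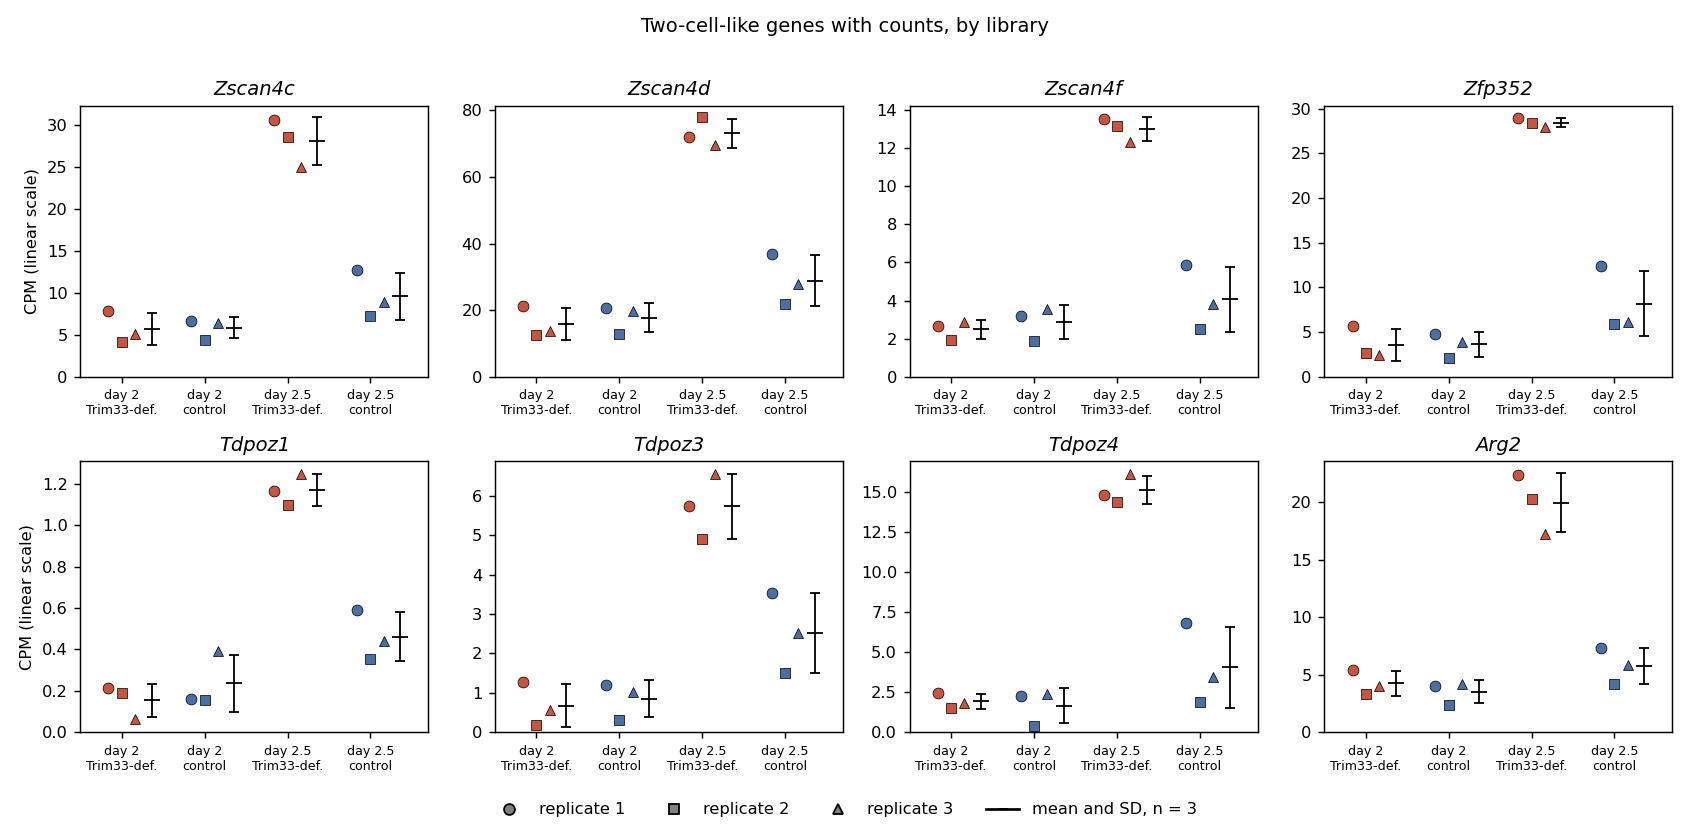
Level of each of the 8 members with counts, in CPM on a linear axis from 0, in each library (points, marked by replicate number) with the group mean and SD (n = 3). On day 2.5 the 3 Trim33-deficient libraries lie above the 3 control libraries in every panel, while on day 2 the genotypes overlap.

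On day 2, 1 day after induction, no such difference was seen. None of the 8 members passed in either direction (0 rose and 0 fell, where 5.94% of all genes tested rose and 3.90% fell), and DESeq2 called 0. At an unadjusted p under 0.05 there were 0, where 3547 of all 14356 genes tested were, in either direction. Zscan4d had 21.2, 12.4 and 13.6 CPM in Trim33-deficient bodies, against 20.7, 12.8 and 19.6 CPM in control bodies. Zfp352 had 5.62, 2.63 and 2.46 CPM in Trim33-deficient bodies, against 4.80, 2.09 and 3.93 CPM in control bodies. Arg2 had 5.41, 3.31 and 3.99 CPM in Trim33-deficient bodies, against 4.00, 2.40 and 4.17 CPM in control bodies. The genotypes overlapped in these 3 genes and in the other 5. In these 3 the SD within either genotype exceeded the difference between the means. The log2 fold change was -0.21 ± 0.26 for Zscan4d, -0.11 ± 0.43 for Zfp352 and 0.23 ± 0.26 for Arg2 (SE). Tdpoz1, with 1 to 3 counts in Trim33-deficient libraries and 2 to 5 counts in control libraries, was too low to compare. The Zscan4a to Zscan4f sum averaged 41.3 ± 11.5 CPM in Trim33-deficient bodies and 45.1 ± 11.0 CPM in control bodies (SD, n = 3 each), a ratio of 0.916. Leaving out the 3 libraries that stood apart moved the fitted value of Zscan4d to -0.62 on the log2 scale (adjusted p = 0.0054, edgeR), with 2 libraries left in each day 2 group. This takes away the highest Trim33-deficient library for 7 of the 8 members and the lowest control library for all 8, which lowers the fold change and narrows the spread by construction, so no difference is read from it.

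Between day 2 and day 2.5 the members rose steeply in Trim33-deficient bodies. All 8 passed, where 9.09% of all genes tested rose and 6.93% fell, and all 3 day 2.5 libraries stood above all 3 day 2 libraries in each, as in 19.4% of all genes tested. Zfp352 averaged 28.4 ± 0.49 CPM on day 2.5 and 3.57 ± 1.78 CPM on day 2 (SD, n = 3 each), a log2 fold change of 3.09 ± 0.34 (SE; adjusted p = 0.000204, edgeR). Zscan4d averaged 73.1 ± 4.36 CPM on day 2.5 and 15.8 ± 4.76 CPM on day 2 (SD, n = 3 each), a log2 fold change of 2.25 ± 0.23 (SE; adjusted p = 0.000158, edgeR). Arg2 averaged 20.0 ± 2.58 CPM on day 2.5 and 4.24 ± 1.07 CPM on day 2 (SD, n = 3 each), a log2 fold change of 2.27 ± 0.21 (SE; adjusted p = 7.11e-06, edgeR). The steepest fitted rise was that of Tdpoz3, at 3.28 ± 0.44 on the log2 scale (SE; adjusted p = 0.000237, edgeR), with 67 to 110 counts in day 2.5 libraries and 3 to 12 in day 2 libraries. Tdpoz1 summed to 52 counts over the day 2.5 libraries and 6 over the day 2 libraries, a ratio of 8.17 per library size with a 95% exact binomial interval of 3.51 to 23.3, which covers counting error only.

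In control bodies over the same time 1 of the 8 members passed as higher, while all 8 had a fitted value above 0. In 5 of the 8 all day 2.5 libraries stood above all day 2 libraries, as in 2324 of all 14356 genes tested. Log2 fold changes of the 8 ran between 0.53 and 1.61, with a median of 0.85, beside one of 2.67 in Trim33-deficient bodies. The member that passed was Tdpoz3 (1.61 ± 0.46, SE; adjusted p = 0.0297, edgeR), where 8.20% of all genes tested rose and 7.91% fell. At an unadjusted p under 0.05 there were 6, where 4296 of all 14356 genes tested were, in either direction. Zscan4d averaged 28.8 ± 7.64 CPM on day 2.5 and 17.7 ± 4.27 CPM on day 2 (SD, n = 3 each), and all day 2.5 libraries were above all day 2 libraries (log2 0.71 ± 0.24, SE; adjusted p = 0.0697, edgeR). Arg2 averaged 5.77 ± 1.56 CPM on day 2.5 and 3.52 ± 0.98 CPM on day 2 (SD, n = 3 each), also without overlap (log2 0.73 ± 0.24, SE; adjusted p = 0.0513, edgeR). The number of members that passed moved with the libraries used. It was 0 without day 2 control replicate 2 or 3 and without day 2.5 control replicate 1 or 3. It was 5 without day 2.5 control replicate 2 or day 2 Trim33-deficient replicate 1, and 2 without day 2 Trim33-deficient replicate 2. It was 6 without the 3 libraries that stood apart, which are set apart partly by these levels.

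The difference between the genotypes' changes was tested as the interaction of genotype and day. It passed for 4 of the 8 members, where 2.77% of all genes tested had a higher value for Trim33-deficient bodies and 1.24% a lower one. All 8 were at an unadjusted p under 0.05, where 3003 of all 14356 genes tested were, in either direction. The excess rise on the log2 scale was 1.62 ± 0.33 for Zscan4c (SE; adjusted p = 0.0203, edgeR), 1.54 ± 0.34 for Zscan4d (adjusted p = 0.0344, edgeR), 1.86 ± 0.38 for Zscan4f (adjusted p = 0.0179, edgeR) and 1.54 ± 0.33 for Arg2 (adjusted p = 0.0194, edgeR). Zfp352 had an estimate of 1.89 ± 0.53 (SE; adjusted p = 0.0717, edgeR), and Tdpoz3 one of 1.67 ± 0.70 (adjusted p = 0.192, edgeR). The number that passed fell to 0 without day 2 control replicate 1 or 3, day 2 Trim33-deficient replicate 2, day 2.5 control replicate 3 or day 2.5 Trim33-deficient replicate 1, to 1 without day 2 Trim33-deficient replicate 3, and was 7 without the 3 libraries that stood apart. Since those 3 are set apart partly by the members' own levels, that 7 is no independent count. The day 2 and day 2.5 comparisons share no library, while the changes over time and the genotype comparisons do.

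**Figure D2:**
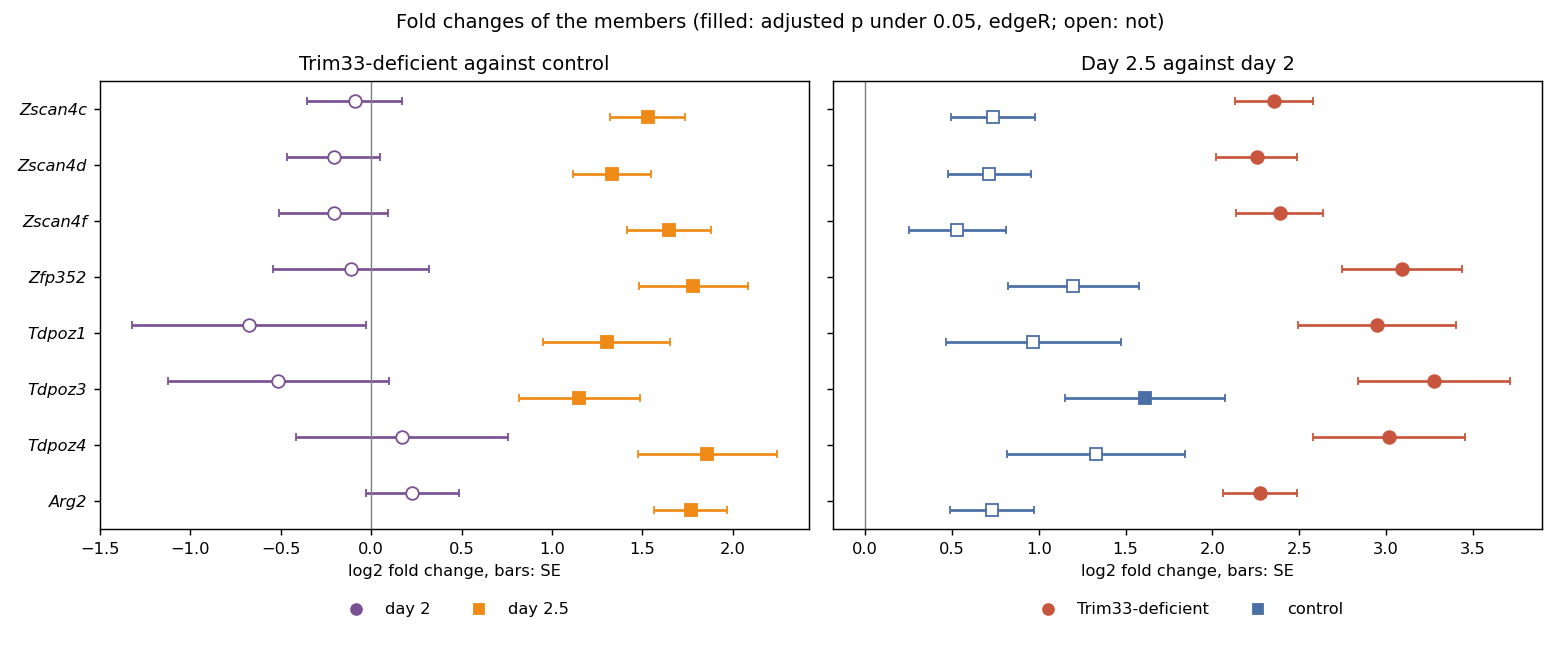
Log2 fold change of each member with its SE (bars), for Trim33-deficient over control bodies on day 2 and day 2.5 (left) and for day 2.5 over day 2 in Trim33-deficient and control bodies (right). Filled symbols passed an adjusted p of 0.05: all 8 on day 2.5, none on day 2, all 8 over time in Trim33-deficient bodies and Tdpoz3 alone in control bodies. For Tdpoz1 on day 2 both groups were near the floor of 3 counts.

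The members varied together from library to library. Their coefficient of variation (CV), the SD as a percent of the mean over 3 libraries, had a median of 6.25% in day 2.5 Trim33-deficient bodies, 34.7% in day 2.5 control bodies, 32.0% in day 2 Trim33-deficient bodies and 34.8% in day 2 control bodies. In day 2.5 control bodies replicate 1 was the highest library for all 8 members and replicate 2 the lowest for all 8. Between these libraries the ratio of highest to lowest ran from 1.66 to 3.66 over the members. In day 2.5 Trim33-deficient bodies the same ratio ran from 1.03 to 1.34, and no library was highest for more than 4 members. This difference in spread was not tested. Replicate 1 was highest for 7 members in day 2 Trim33-deficient bodies and for 4 in day 2 control bodies, level with replicate 3. Replicate 2 was lowest for 6 and for 8 members in these groups. In day 2.5 Trim33-deficient bodies replicate 1 was highest for 4, while replicate 2 was lowest for 3 and replicate 3 for 5. Whether a shared number marks a shared pair is not given in the labels.

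The shares of the Zscan4 rows in the family's counts varied by library, most in relative terms for the rows with few counts. Zscan4d took 36.7% to 41.5% of the counts of Zscan4a to Zscan4f over the 12 libraries, Zscan4a 24.3% to 31.4%, Zscan4c 12.5% to 15.6%, Zscan4e 6.67% to 11.4%, Zscan4f 4.33% to 7.91% and Zscan4b 3.10% to 6.63%. These are shares of reads as the counting assigned them, not of transcripts per length. On day 2.5 Zscan4d took 37.7% ± 0.91 in Trim33-deficient bodies and 39.3% ± 1.91 in control bodies (SD, n = 3 each), against a change of the family sum by 2.64 times. Zscan4a, Zscan4b and Zscan4e, which are not among the 10 and are named after their values were seen, had log2 fold changes of 1.31 ± 0.18, 1.40 ± 0.23 and 1.43 ± 0.25 on day 2.5 (SE), all past the threshold.

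**Figure D3:**
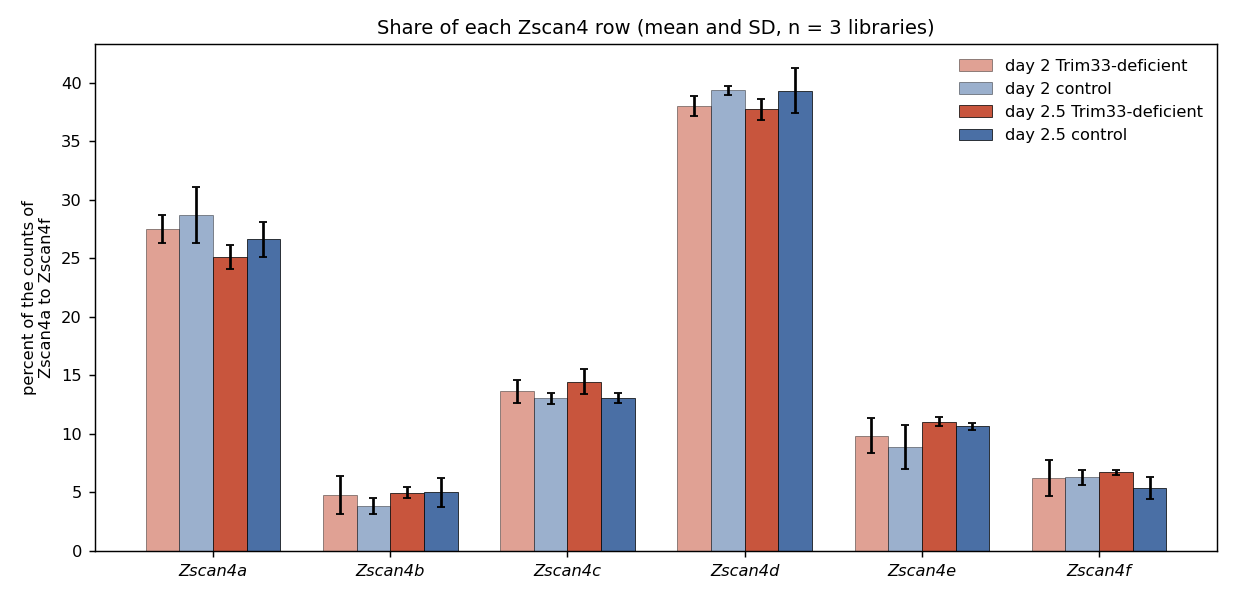
Share of each of the 6 Zscan4 rows in their summed counts, in percent (bars start at 0; mean and SD, n = 3 libraries), for the 4 groups. Zscan4d holds between 37.7% and 39.3% in every group, although the family sum on day 2.5 is 2.64 times as high in Trim33-deficient as in control bodies.

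Other genes of the 2-cell-like programme were followed from a list of 72, drawn up with earlier results of these data known. Of these, 59 have a row, 15 of them at 0 counts in every library, and 39 were tested. On day 2.5, 37 of the 39 rose in Trim33-deficient bodies relative to control bodies and 0 fell, where 22.0% of all genes tested rose and 20.7% fell, with a median log2 fold change of 1.54. The 2 that did not pass, Eif1a (-0.03 ± 0.05) and Sh2d4a (0.07 ± 0.33, SE), are named after their values were seen. BB287469, AU015228, Gm11487 and Gm10696, also so named, averaged 1.40 to 2.72 CPM in day 2.5 Trim33-deficient bodies. In every other group each averaged 0.599 CPM or less. They passed the filter mainly through the group where they are high, so their calls are partly set by the filter. Gm8300, a predicted gene, averaged 30.1 ± 1.12 CPM in Trim33-deficient bodies and 8.28 ± 2.64 CPM in control bodies (SD, n = 3 each; log2 1.84 ± 0.18, adjusted p = 2.60e-06, edgeR). Cml2, of the camello-like N-acetyltransferase family, averaged 14.4 ± 1.48 CPM in Trim33-deficient bodies and 2.91 ± 0.38 CPM in control bodies (log2 2.29 ± 0.23, adjusted p = 2.73e-06, edgeR). Lmx1a, a LIM-homeodomain factor known from neural patterning, averaged 14.8 ± 2.49 CPM in Trim33-deficient bodies and 4.22 ± 0.67 CPM in control bodies (log2 1.80 ± 0.19, adjusted p = 3.32e-06, edgeR).

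Further genes of that list reached similar sizes. Pramef6, of the PRAME family, rose by 1.78 ± 0.21 on the log2 scale and Gm13119, a predicted gene, by 1.29 ± 0.15 on day 2.5 (SE; adjusted p = 9.42e-06 and 9.91e-06, edgeR). The deubiquitinase genes Usp17la to Usp17le summed to 206 ± 12.3 CPM in Trim33-deficient bodies and 63.3 ± 18.2 CPM in control bodies (SD, n = 3 each), a ratio of 3.25. Zfp750, a zinc finger factor known for its role in epidermal differentiation, was the 1 gene of the 39 that also passed on day 2, at 9.80 ± 1.40 CPM in Trim33-deficient bodies and 5.42 ± 1.96 CPM in control bodies (SD, n = 3 each; log2 0.84 ± 0.20, adjusted p = 0.0173, edgeR). That call was lost without day 2 Trim33-deficient replicate 1 (adjusted p = 0.0675, edgeR). Over time 36 of the 39 rose in Trim33-deficient bodies (9.09% of all genes tested), while 16 rose and 2 fell in control bodies (8.20% and 7.91% of all genes tested). The 16 became 7 without day 2.5 control replicate 1. The interaction passed for 21 with a higher value for Trim33-deficient bodies (2.77% of all genes tested), and for 6 without day 2 control replicate 3 or without day 2 Trim33-deficient replicate 3.

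**Figure D4:**
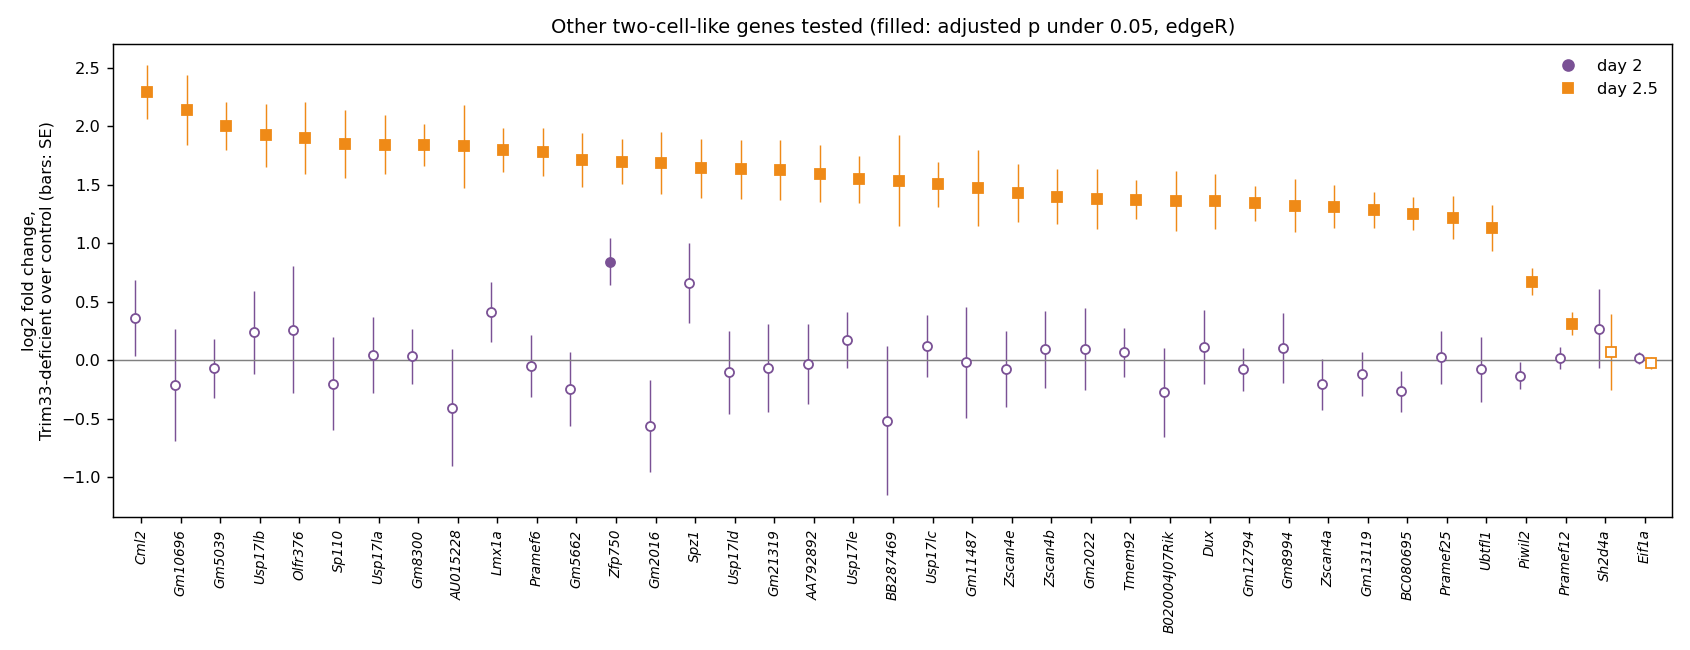
Log2 fold change, Trim33-deficient over control, of the 39 other 2-cell-like genes tested, on day 2 (circles) and day 2.5 (squares), with SE as bars and genes ordered by the day 2.5 value. On day 2.5, 37 are filled (adjusted p under 0.05), all above 0, and on day 2 only Zfp750 is.

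Dux, named after its values were seen, had 4.38 ± 0.21 CPM in Trim33-deficient bodies and 1.66 ± 0.73 CPM in control bodies on day 2.5 (SD, n = 3 each), a log2 fold change of 1.36 ± 0.24 (SE; adjusted p = 0.000291, edgeR). On day 2 it had 1.22 ± 0.08 CPM in Trim33-deficient bodies and 1.13 ± 0.22 CPM in control bodies and did not pass (adjusted p = 0.863, edgeR). Its interaction of genotype and day did not pass either, at 1.24 ± 0.40 on the log2 scale (SE; adjusted p = 0.0904, edgeR). Dppa2 averaged 79.9 ± 0.72 CPM in Trim33-deficient bodies and 47.8 ± 9.93 CPM in control bodies on day 2.5 (log2 0.73 ± 0.18, adjusted p = 0.00807, edgeR). Dppa4 averaged 88.7 ± 2.77 CPM in Trim33-deficient bodies and 69.2 ± 5.77 CPM in control bodies (log2 0.36 ± 0.07, adjusted p = 0.000511, edgeR). Both were also named after their values were seen. Neither passed over time in Trim33-deficient bodies, at 0.33 ± 0.18 for Dppa2 and -0.08 ± 0.07 for Dppa4 (log2, SE; adjusted p = 0.239 and 0.423, edgeR). In control bodies over time Dppa4 fell by -0.51 ± 0.07 (adjusted p = 0.000173, edgeR). Dppa2 had -0.41 ± 0.18 there and did not pass (adjusted p = 0.165, edgeR).

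Of 40 tested genes known to act on the 2-cell-like state, as activators or as repressors, 14 rose, 12 fell and 14 did not pass on day 2.5, against 22.0% and 20.7% of all genes tested, and their median log2 fold change was -0.01. On day 2, 1 rose and 7 fell, against 5.94% and 3.90% of all genes tested. The 6 with the smallest adjusted p on day 2.5 hold activators and repressors. Dppa3, a maternal factor of the early embryo, rose by 1.18 ± 0.11 on the log2 scale, and Nelfa, a subunit of the negative elongation factor, rose by 0.55 ± 0.06 (SE; adjusted p = 1.53e-06 and 3.55e-06, edgeR). Ctcf, the insulator protein, averaged 229 ± 12.1 CPM in Trim33-deficient bodies and 306 ± 4.71 CPM in control bodies (log2 -0.42 ± 0.05, adjusted p = 6.17e-06, edgeR). Kdm1a, the histone demethylase LSD1, had a log2 fold change of -0.35 ± 0.04, and Chaf1b, a subunit of the chromatin assembly factor CAF-1, one of -0.39 ± 0.06 (SE; adjusted p = 9.10e-06 and 5.41e-05, edgeR). Zmynd8, a chromatin reader, had one of -0.35 ± 0.04 (adjusted p = 1.54e-05, edgeR). These 6 do not stand for the list, in which 14 rose and 12 fell. Named after their values were seen, Rif1 (0.40 ± 0.06), Daxx (0.40 ± 0.08) and Mga (0.38 ± 0.08) rose (log2, SE). Atrx (0.28 ± 0.05) and Morc3 (0.26 ± 0.05) rose as well. Direction by role was not tested. Trim28, a co-repressor of endogenous retroviruses and of the same protein family as Trim33, averaged 2155 ± 56.7 CPM in Trim33-deficient bodies and 2069 ± 238 CPM in control bodies and did not pass (log2 0.06 ± 0.08, SE, named after its value was seen).

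Genes outside these lists that followed the members most closely were sought among 13403 candidates, by Pearson r over the 12 libraries with the members' mean standardised log2 CPM. The 8 with the highest r were Tmem132c (0.991), Aqp9 (0.990), Colgalt2 (0.989), Fgf1 (0.986), Dcc (0.984), Gm13078 (0.980), Lonrf3 (0.978) and A430089I19Rik (0.977). Aqp9 encodes an aquaglyceroporin, Fgf1 a fibroblast growth factor and Dcc the netrin receptor. On day 2.5 their log2 fold changes ran between 1.26 for Lonrf3 and 1.95 for Dcc, and on day 2 between -0.51 for A430089I19Rik and 0.21 for Dcc. The choice by r over the same libraries fixes this pattern, so these values are a description with no test. The r values describe 12 libraries that include the 4 group means.

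Markers of naive pluripotency moved with genotype as well. On day 2.5, where 22.0% of all genes tested rose and 20.7% fell, 15 of 17 rose and 1 fell. The 1 that fell was Nanog, named after its value was seen, and their summed level was 1761 to 1857 CPM in Trim33-deficient libraries, against 1330 to 1403 CPM in control libraries. On day 2, when none of the 8 members passed, 8 of the 17 rose and 1 fell (5.94% and 3.90% of all genes tested), with sums of 1565 to 1833 CPM in Trim33-deficient libraries, against 1512 to 1546 CPM in control libraries. None of the 17 was at 0 in any group. Trophoblast markers summed to 129 to 170 CPM in Trim33-deficient libraries and 98.0 to 163 CPM in control libraries on day 2.5, with 5 of 9 tested higher and 1 lower, and no marker of the list was at 0. Primitive and visceral endoderm markers had 3 higher and 3 lower of 11 tested on day 2.5 (95.4 to 106 CPM in Trim33-deficient libraries, against 125 to 144 CPM in control libraries). Fibroblast markers had 1 higher and 4 lower of 6 tested (102 to 106 CPM in Trim33-deficient libraries, against 123 to 153 CPM in control libraries). Of 15 hypoxia and glycolysis genes 1 was higher and 1 lower on day 2.5. The endoderm counts are near the shares over all genes tested, and none of these lists was tested as a set. The part of these markers in the members' levels was not tested.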

How the data were processed

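RNA-seq of embryoid bodies was analysed in 12 libraries, in 4 groups of 3 given by the labels. The authors deposited raw counts per gene; STAR, HTSeq, DESeq and build mm9 are named in the submitters' processing notes. The sources used here do not give versions, annotation, strand or the handling of multiply matching reads. Gene rows held 39.3% to 43.9% of counted and uncounted reads and the no-feature row 55.9% to 60.5%. Rows that name no gene were left out. In day 2.5 Trim33-deficient replicate 1, 27 gene names that had become dates were restored from the order of rows in the other files.

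From these counts edgeR 4.0.16 (R 4.3.3) gave TMM factors, a filter (filterByExpr by group) and quasi-likelihood tests on 4 group means over all 12 libraries (8 residual degrees of freedom), so that every p rests on how far these libraries vary within groups. Benjamini-Hochberg adjusted p under 0.05 was called. On simulated counts for the day 2.5 comparison (14263 genes) the test recovered 80.6% of changes of 1.5 times and 100% of changes of 2 times. The genes changed there all had a mean level above a minimum that Tdpoz1, Tdpoz3 and Dux do not reach. Other genes named here, such as Pramef6, Zscan4b and A430089I19Rik, do not reach it either. Recovery for genes that low, or for genes that vary as much as the members, was not tested separately. Over time in control bodies Zfp352 (2.29 times, adjusted p = 0.0534, edgeR) and Tdpoz4 (2.51 times, adjusted p = 0.108, edgeR) did not pass. DESeq2 1.42.0, other scalings, filters and left-out libraries were alternatives. Coding sequences were aligned with Biopython, and stretches of 50 bases looked up in GENCODE M21 transcripts. Members and lists were chosen with earlier results of these data known. Named beyond the 10 members were the 6 genes of each of 2 lists with the smallest adjusted p on day 2.5, the 8 most alike in profile, and those said to be named after their values were seen. Trim33, Rn45s and, as a summed family, Usp17la to Usp17le were named as well. Replicate numbers are not said to mark the pairs. For that reason the main fit had no replicate block, which was run as an alternative. Over all genes, same-numbered libraries did not all deviate together.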

Additional observations from a re-analysis of the deposited data

Results flagged for a closer look

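The gap between Trim33-deficient and control bodies differed between the days, by the interaction test itself (adjusted p under 0.05, edgeR). This held for 4 members, 21 of the other 2-cell-like genes tested and 5 of the genes acting on the state. Those among the members and the genes named by rule from the 2 lists are given here. The excess of the day 2.5 over the day 2 log2 fold change was 1.62 for Zscan4c, 1.54 for Zscan4d, 1.86 for Zscan4f and 1.54 for Arg2. Among other 2-cell-like genes it was 1.81 for Gm8300, 1.93 for Cml2, 1.39 for Lmx1a, 1.83 for Pramef6 and 1.41 for Gm13119. Among genes acting on the state it was 0.69 for Dppa3 and 0.66 for Nelfa. Over 21 alternatives Gm8300, Pramef6, Gm13119 and Nelfa passed in all 21, Cml2 in 17, Lmx1a in 14 and Dppa3 in 12. Of the members Zscan4f passed in 16, Zscan4c and Arg2 in 15 and Zscan4d in 12. With each library left out in turn, 0 to 6 members passed. With single libraries left out, the adjusted p reached 0.0954 for Cml2, 0.103 for Lmx1a and 0.108 for Dppa3 (edgeR). Groups of 3 libraries are too small for a check of single outlying samples.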

How the results depend on the processing

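On day 2.5 all 8 members passed under every alternative except DESeq2 (7, Tdpoz1 lost) and without day 2.5 control replicate 3 (7, Tdpoz3 lost), and 36 or 37 of the other 2-cell-like genes rose under each. All 8 members rose over time in Trim33-deficient bodies under every alternative. On day 2 the members higher stayed at 0, and 1 was lower without the 3 libraries that stood apart, a setting that removes extreme values of these genes by construction. The other 2-cell-like genes higher on day 2 were 0 when only the libraries compared were fitted, without the 2 libraries rich in Rn45s and without the 3 libraries that stood apart, and 0 to 1 with each library left out in turn. In control bodies over time, the members that rose numbered 4 with DESeq2, 0 with only the libraries compared, 6 without the 2 libraries rich in Rn45s, 6 without the 3 libraries that stood apart, and 0 to 5 with each library left out, and other 2-cell-like genes 8 with only the libraries compared and 7 to 20 with each library left out. For the interaction, 7 members and 32 other genes passed without the 3 libraries that stood apart, and 0 to 6 members and 6 to 31 others with each library left out. Genes past the threshold on day 2 were 814 without the 2 libraries rich in Rn45s and 514 to 1617 with each library left out, against 1413 with all. On day 2.5 they were 4794 to 6571 with each library left out. Over time they were 3741 without the 3 libraries that stood apart and 1101 to 2780 with each left out in Trim33-deficient bodies, and 1384 with only the libraries compared and 1235 to 2393 with each left out in control bodies. For the interaction they were 1967 without the 3 libraries that stood apart and 119 to 1217 with each left out. On day 2 signs turned, always without a call, for Tdpoz4 (-0.45) and Arg2 (-0.16) without the 3 libraries that stood apart, for Gm8300 without the 2 libraries rich in Rn45s (-0.13) or without the 3 (-0.25), and for Cml2 without the 3 (-0.094). With each library left out, day 2 log2 values ran from -0.33 to 0.10 for Zscan4c, -0.50 to 0.14 for Zfp352, -0.30 to 0.52 for Tdpoz4, -0.13 to 0.18 for Gm8300, -0.25 to 0.13 for Pramef6, -0.33 to 0.049 for Gm13119 and -0.011 to 0.27 for Dux. The change over time in control bodies ran from -0.40 to 0.12 for Zfp750 and -0.007 to 0.10 for Nelfa. The cause of these shifts was not tested. The replicate block, with numbers not shown to pair the libraries (same-number correlations of -0.08 to 0.45), called 1169 genes for the interaction against 575 without it, and 5 members in control bodies over time against 1, and changed no other count by over 1.5 times. DESeq2 gave no adjusted p for 2 values, which were left out.

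The day 2 fold changes of the members carry the SEs given with them. Tdpoz1 and Tdpoz3 on day 2 rest on 1 to 15 counts a library. Shared sequence leaves single copies of Zscan4 and Tdpoz uncertain.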

Other observations

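Among genes named after their values were seen, the 2-cell-like genes Piwil2 and Pramef12 fell over time in control bodies while most of that list did not: Piwil2, a PIWI protein of the germline, had a log2 fold change of -0.43 ± 0.12 and Pramef12 one of -0.40 ± 0.09 (SE; adjusted p = 0.0228 and 0.00927, edgeR). In Trim33-deficient bodies over the same time Piwil2 rose by 0.37 ± 0.11 (adjusted p = 0.0360, edgeR), and Pramef12 had -0.11 ± 0.09 (adjusted p = 0.460, edgeR). Smchd1 and Rif1 are both on the list of genes acting on the state. Smchd1, a chromatin protein known to silence repeated gene clusters, had a log2 fold change of -0.37 ± 0.05 on day 2.5 between Trim33-deficient and control bodies (adjusted p = 6.35e-05, edgeR). Rif1, a telomere-associated protein, went the other way and rose by 0.40 ± 0.06 (adjusted p = 0.000147, edgeR).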
